A study of Homo sapiens with 2 samples.

Results

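The RFX6 peaks that lay where the ends of different protein-coding genes meet were examined in MHCC-97H cells. An interval was taken when its midpoint was within 1 kb of an end of at least 2 different protein-coding genes in the RefSeq gene table of GRCh38.p14. Of the 4994 distinct intervals on chromosomes 1 to 22, 547 met this rule, which was 10.95% (95% Wilson interval 10.1% to 11.8%). Another 2488 intervals lay at the end of a single coding gene, and 1959 lay at none. Of the 547 intervals, 535 lay at the ends of 2 genes and 12 at the ends of 3. They touched the ends of 957 of the 19126 coding genes on these chromosomes. Only 7034 of the 19126 genes have an end of another coding gene within 2 kb, so that an interval could meet the rule there at all, and the 957 were 13.6% of them. Any interval within 1 kb of an end, shared or not, was found for 16.1% of all 19126 coding genes. The 13.6% counts only intervals at the ends of at least 2 genes, so these shares are not like for like.

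The study asked which genes RFX6 binds in hepatocellular carcinoma (HCC). MHCC-97H is a human HCC cell line, and its cells carried HA-tagged RFX6 from an overexpression plasmid (RFX6-OE), because the RFX6 antibody of the study was not suited to ChIP. Chromatin was fixed with formaldehyde, and the ChIP assays of the study used an anti-HA antibody. The series holds 1 HA-RFX6 ChIP library and 1 input library, of which the input file was not analysed here. The peak list of the ChIP library came without replicates, untagged cells or read counts, so its depth was unknown, no test between samples was possible, and every interval given below covers the counting of peaks, genes or bases only. Each peak carries a whole-number score whose meaning is not stated, so scores serve only to rank peaks within the list.

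Many human genes are arranged head to head, with their starts close together on opposite strands, and the stretch between the starts then serves as a bidirectional promoter for both. Such promoters are rich in CpG islands and poor in TATA boxes, and many of them drive housekeeping genes for DNA repair, mitochondria or protein synthesis. The RFX family, to which RFX6 belongs, binds the X-box, a palindrome of GTTGCC-like elements with a short spacer, through a winged-helix domain.

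The stretches between the starts of 6 head-to-head pairs are shown first, because they let the bases of a bidirectional promoter be read beside its interval. They have the highest scores of 52 stretches that met 3 conditions. The starts were 40 to 250 bp apart, the midpoint of the interval lay between them or within 100 bp of either, and the whole gap lay in the promoter window of the second gene. Without the last condition there were 56, and CSNK1A1/ARHGEF37 with a score of 72 and ABHD3/MIB1 with 67 would have ranked among the 6. Each is the plus strand of GRCh38.p14 as given in the RefSeq promoter table, read 5′ to 3′ from just after the start of the first gene, on the minus strand, to just before the start of the second, on the plus strand. Capitals mark matches on either strand to any of 12 motifs, whose letters or names are given with the motif results.
EFHB/RAB5A (chr3:19946984-19947096, 113 bases, interval score 75): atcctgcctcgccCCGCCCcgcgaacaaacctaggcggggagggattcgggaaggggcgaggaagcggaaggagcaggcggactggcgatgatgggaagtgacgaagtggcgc
KBTBD4/NDUFS3 (chr11:47578971-47579073, 103 bases, interval score 73): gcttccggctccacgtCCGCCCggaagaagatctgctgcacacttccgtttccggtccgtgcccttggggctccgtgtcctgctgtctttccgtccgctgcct
DDX54/RITA1 (chr12:113185479-113185720, 242 bases, interval score 63): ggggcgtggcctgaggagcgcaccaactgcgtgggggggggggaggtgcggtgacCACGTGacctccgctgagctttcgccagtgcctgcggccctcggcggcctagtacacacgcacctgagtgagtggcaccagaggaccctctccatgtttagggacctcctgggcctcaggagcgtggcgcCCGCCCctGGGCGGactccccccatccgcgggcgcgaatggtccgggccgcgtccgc
C9orf78/USP20 (chr9:129835276-129835457, 182 bases, interval score 61): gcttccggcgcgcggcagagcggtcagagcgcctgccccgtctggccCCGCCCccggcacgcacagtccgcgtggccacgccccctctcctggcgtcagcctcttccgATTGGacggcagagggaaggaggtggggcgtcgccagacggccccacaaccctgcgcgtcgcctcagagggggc
TPRA1/MCM2 (chr3:127598232-127598410, 179 bases, interval score 60): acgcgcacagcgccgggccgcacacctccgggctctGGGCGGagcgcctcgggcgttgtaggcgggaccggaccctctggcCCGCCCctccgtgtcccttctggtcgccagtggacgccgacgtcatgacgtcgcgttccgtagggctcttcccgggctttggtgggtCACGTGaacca
VPS29/RAD9B (chr12:110502112-110502330, 219 bases, interval score 58): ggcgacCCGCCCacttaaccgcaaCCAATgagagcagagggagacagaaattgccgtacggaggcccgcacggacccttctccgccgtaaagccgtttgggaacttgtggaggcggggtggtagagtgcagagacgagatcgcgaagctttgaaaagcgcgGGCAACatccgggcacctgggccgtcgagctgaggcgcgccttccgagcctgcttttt
All 6 stretches held the SP letters GGGCGG, read on the other strand as CCGCCC. The E-box CACGTG stood between DDX54 and RITA1 and between TPRA1 and MCM2. CCAAT or its complement stood between C9orf78 and USP20 and between VPS29 and RAD9B. The RFX element GTTGCC, read on the other strand as GGCAAC, was in the stretch of VPS29/RAD9B alone. Among all 52 stretches, 38 held GGGCGG, 20 CCAAT, 10 CACGTG, 8 the NRF1 motif and 4 GTTGCC, while none held an X-box or TATAAA.

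The first question was which gene ends met at these intervals. The strand and thereby the start of a gene was known for 15101 of the 19126 genes, and 398 of the 547 intervals could be placed between ends of known kind. The intervals not placed include all 22 on chromosome 8, which therefore entered none of the counts by strand, start or promoter. Of the 398, 300 lay at a pair of head-to-head starts, which was 75.4% (70.9% to 79.4%). A further 73 lay where the start of a gene adjoins the tail, or 3′ end, of its neighbour. Among these 73, 61 were nearer to the start than to the tail (83.6%, 73.4% to 90.3%). Another 20 lay at starts on the same strand, and 11 of these 20 involved a read-through gene, an annotated fusion of neighbouring genes. Only 5 lay where tails met without a start. A start was thus among the ends in 393 of the 398 placed intervals.

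Since head-to-head pairs might only be more common than other arrangements, all 4926 pairs of ends of different coding genes at most 2 kb apart were then counted. An interval lay within 1 kb of both ends in 501 pairs (10.2%). Of 1162 head-to-head pairs, 266 had an interval (22.9%, 20.6% to 25.4%). Of 141 pairs of starts on the same strand, 22 had an interval (15.6%, 10.5% to 22.5%), and without read-through genes it was 9 of 73 (12.3%, 6.62% to 21.8%). Where a start adjoined a tail, 68 of 910 pairs had an interval (7.47%, 5.94% to 9.37%). Tail-to-tail pairs had an interval in 7 of 888 cases (0.788%, 0.382% to 1.62%), and tails on the same strand in 3 of 383 (0.783%, 0.267% to 2.28%). The intervals of the head-to-head and tail-to-tail shares did not overlap. The same order was seen for pairs at most 500 bp apart, with 25.9% of 901 head-to-head pairs and 1.17% of 428 tail-to-tail pairs.

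**Figure D1:**
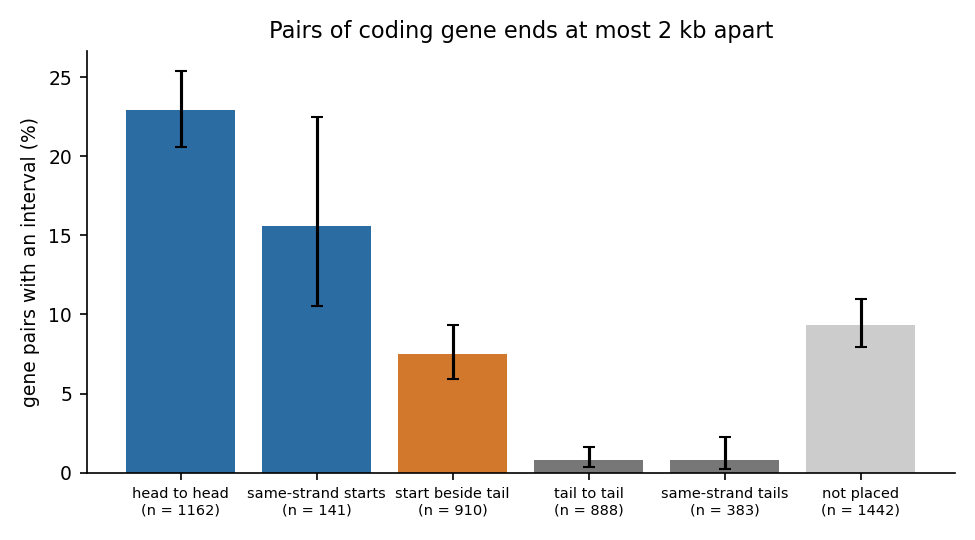
Share of gene pairs with an RFX6 interval within 1 kb of both ends, in percent, by the arrangement of the ends, with 95% Wilson intervals and the number of pairs under each bar. Head-to-head pairs stand at 22.9%, pairs of a start and a tail at 7.47%, and pairs of tails below 1%.

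A gene could also carry an interval simply because it has a start, so starts were compared with and without a neighbour in the same window of 1 kb to either side. Of 2273 starts facing another start within 2 kb, 553 had an interval (24.3%, 22.6% to 26.1%). Starts with no other coding gene end within 2 kb had an interval in 1567 of 10724 cases (14.6%, 13.96% to 15.3%). Starts beside only a tail were close to the latter, with 120 of 827 (14.5%, 12.3% to 17.1%). Tails depended on what they faced. Of 865 tails beside a start, 76 had an interval (8.79%, 7.08% to 10.9%), against 17 of 1705 tails facing a tail (0.997%, 0.623% to 1.59%) and 45 of 11095 lone tails (0.406%, 0.303% to 0.542%).

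The higher share at head-to-head starts was on the outer side of the gene, where the neighbour lies. Among 1640 starts of head-to-head genes that do not overlap, 176 had an interval with its midpoint inside the gene, within 1 kb of the start (10.7%, 9.32% to 12.3%). Lone starts had such an interval in 1096 of 10724 cases (10.2%, 9.66% to 10.8%), and these ranges overlapped. On the outer side, 265 of the 1640 paired starts had an interval (16.2%, 14.5% to 18.0%), against 608 of the 10724 lone starts (5.67%, 5.25% to 6.12%), and these ranges did not overlap. For paired starts, the outer 1 kb includes the first part of the neighbouring gene. An interval inside a gene there also counted as outside its partner, and an interval in the gap counted as outside both. A higher outer share thus follows at least in part from the counting. The Wilson ranges treat the starts of a pair as separate, which they are not. The inner shares of 10.7% and 10.2% were close, and how much of the outer share comes from the neighbouring gene was not tested.

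**Figure D2:**
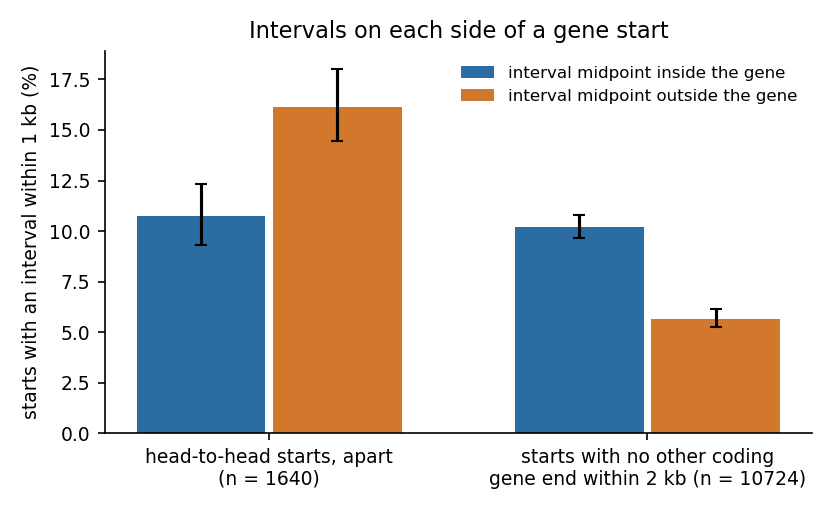
Share of gene starts, in percent, with an interval midpoint inside the gene (blue) or outside it (orange) within 1 kb of the start, with 95% Wilson intervals. The inner shares are 10.7% and 10.2% for head-to-head and lone starts, whereas the outer shares are 16.2% and 5.67%. At head-to-head starts, an interval inside a gene can also count as outside its partner.

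Of the 501 pairs of any arrangement with an interval, 436 had only 1. Where the genes of a pair do not overlap, the midpoint of a single interval cannot lie on both. The sides given next therefore do not show whether binding within a pair favours a side. Of 194 head-to-head pairs with starts apart and an interval, 50 had intervals only on the side of the minus-strand gene and 74 only on the side of the plus-strand gene. In 16 pairs both sides had an interval, in 45 all intervals lay between the starts, and in 9 an interval lay between the starts and another on a side. The shares with an interval did not fall steadily with the distance between the starts. They were 23.8% of 202 pairs up to 100 bp apart, 26.8% of 250 over 100 to 200 bp, 19.6% of 163 over 200 to 300 bp and 34.2% of 114 over 300 to 500 bp. Over 500 to 1000 bp the share was 13.3% of 60 pairs, and over 1 to 2 kb it was 0 of 48, for which the upper Wilson bound was 7.41%. The window that is within 1 kb of both starts narrows with this distance by construction. Overlapping head-to-head genes had an interval in 72 of 325 pairs (22.2%, 18.0% to 27.0%), against 194 of 837 pairs with starts apart (23.2%, 20.4% to 26.2%).

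The 300 head-to-head intervals were then placed relative to the starts. In 221 the starts were apart, by a median of 177 bp (quartiles 104 and 287 bp), and in 79 the genes overlapped, by a median of 373 bp. The midpoint lay between the starts in 53 of the 221 (24.0%, 18.8% to 30.03%). Across the 300, the median distance from the midpoint to the centre between the starts was 212.5 bp, with 73 (24.3%) within 100 bp and 173 (57.7%) within 250 bp. No start was covered by 146 intervals (48.7%), a single start by 106 (35.3%) and both starts by 48 (16.0%). Intervals that covered both starts were wider, with a median of 459 bp against 240.5 bp for those that covered none. Their median score was 39 (31 to 43) against 29 (27 to 32), ranges that overlapped slightly. A wider interval covers both starts more readily by construction, and scores rose with width, as given below. The part of width in the contrast of scores was not tested. Relative to the nearer of the outermost starts, 207 of the 300 midpoints lay inside the gene (69.0%, 63.6% to 74.0%). With positions outside the gene counted as negative, the median over all 300 was 106.75 bp into the gene. For 1932 intervals at a single start, 1257 midpoints lay inside (65.1%, 62.9% to 67.2%), and the median over all 1932 was 97.25 bp. With the nearest start among all those in the promoter table, the shares were 59.7% (54.0% to 65.1%) and 57.2% (55.0% to 59.4%). At starts that are apart, a midpoint outside the gap lies inside a gene by construction. The shares at shared and single promoters are therefore not like for like, and their likeness was not tested.

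**Figure D3:**
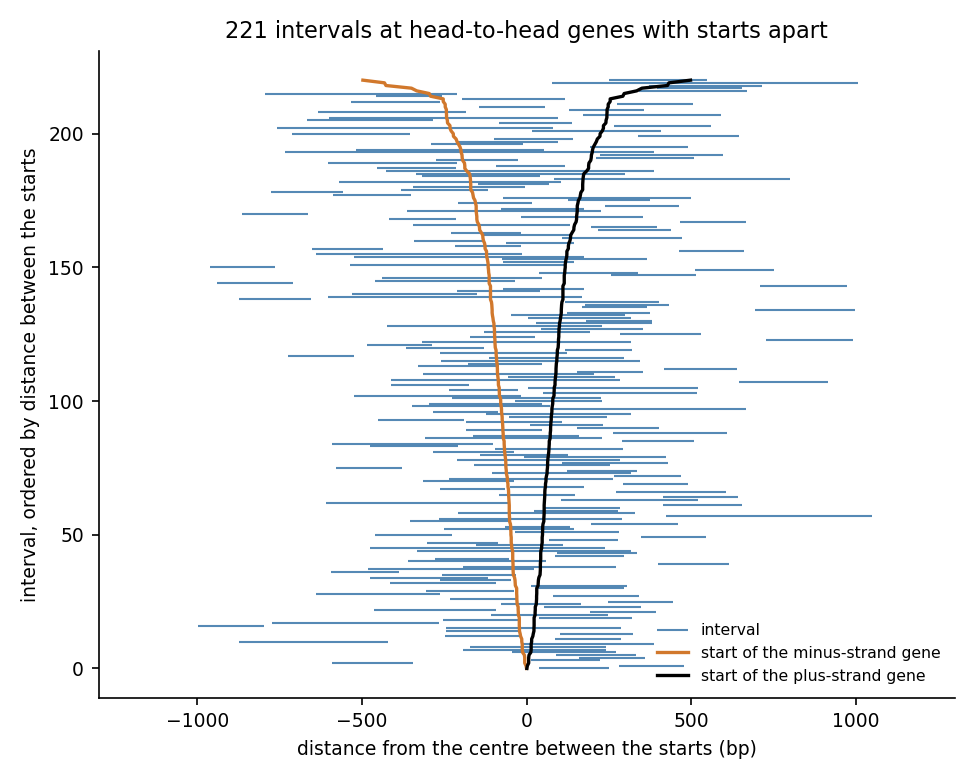
The 221 intervals at head-to-head genes with starts apart, drawn as blue lines along the distance from the centre between the starts, in bp, and ordered by the distance between the starts. The orange and black curves mark the starts of the minus-strand and plus-strand genes. Intervals lie on both sides and often just beyond a start, and 53 of 221 have their midpoint between the curves.

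The intervals at shared gene ends were not ranked higher than those at a single gene. The median score was 32 (31 to 33) for the 547 intervals, 32 (32 to 33) for intervals at a single coding gene and 28 (27 to 29) for intervals at none. The share with a score of at least 60 was 7.495%, 8.08% and 3.88% in these classes. The highest score was 90 among the 547, 126 at single genes and 170 away from coding gene ends. Median widths were 279, 283 and 259 bp. The classes differed in how often an interval was listed. Of the 547 intervals, 173 were listed more than once (31.6%, 27.9% to 35.6%), against 505 of 2488 (20.3%, 18.8% to 21.9%) and 243 of 1959 (12.4%, 11.02% to 13.9%). Why lines repeat is not stated. Across the 547 intervals the score rose with width, with a Spearman rho of 0.36, as it did over all 4994 intervals, with a rho of 0.31. These are descriptions across intervals of 1 library.

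**Figure D4:**
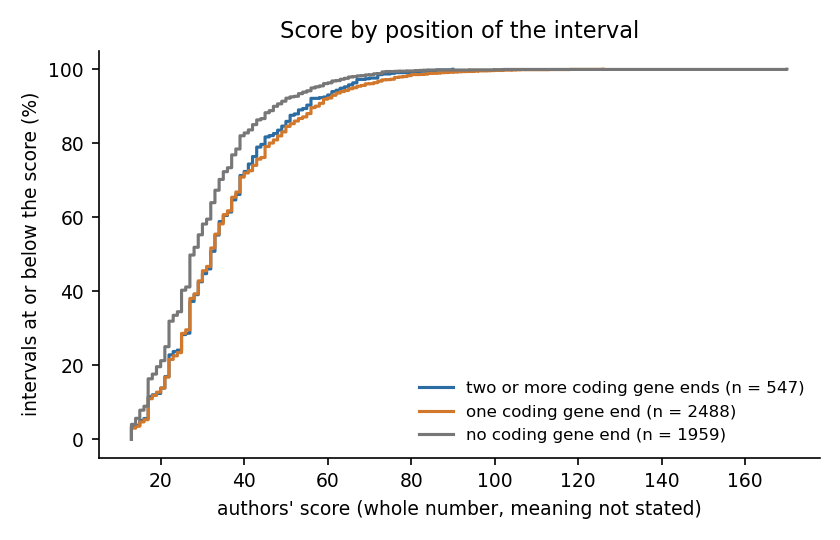
Cumulative share of intervals, in percent, at or below each score for intervals at the ends of at least 2 coding genes, of a single coding gene and of none. The first 2 curves run together with medians of 32, and the curve away from coding gene ends lies to their left with a median of 28.

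The highest scores are given with their genes, down to the score of the 10th interval, at which 5 were tied. The interval at chr14:77321035-77321627 had a score of 90, which was rank 24 among all 4994 intervals. It covered the start of GSTZ1, an enzyme of tyrosine breakdown, whose neighbour POMT2 is a protein O-mannosyltransferase. At CDCA3, a cell cycle protein, and USP5, a deubiquitinase, the interval at chr12:6851796-6852724 had a score of 86 and was 929 bp wide. At NUTF2, which carries Ran into the nucleus, and CENPT, a kinetochore protein, the interval at chr16:67846834-67847609 had a score of 85. ANKRD13A, a ubiquitin-binding protein, and GIT2, a GTPase-activating protein for ARF, shared an interval of score 82 at chr12:109999156-109999409. RPN2, a subunit of the oligosaccharyltransferase, and MROH8 shared an interval of score 80 at chr20:37179028-37179293, which covered neither start. An interval of score 76 at chr1:156728468-156728707 was centred on the overlap of METTL25B and ISG20L2, an exonuclease of ribosomal RNA processing. At EFHB and RAB5A, the GTPase of early endosomes, the interval at chr3:19946990-19947215 had a score of 75, with its midpoint 5.5 bp inside RAB5A. At KBTBD4, a ubiquitin ligase adaptor, and NDUFS3, a core subunit of respiratory complex I, the interval at chr11:47578755-47579311 had a score of 73, covered both starts and was centred 11 bp from the middle of the gap. The 5 tied intervals had a score of 72. Of these, 2 lay at CATSPERZ, a subunit of the sperm calcium channel, and ESRRA, a nuclear receptor of energy metabolism, at chr11:64304612-64305023 and chr11:64305250-64305519. At CSNK1A1, a casein kinase, and ARHGEF37 the interval at chr5:149551269-149551655 covered both starts. The others were at SFTPC/BMP1 and at TSEN54, a subunit of the tRNA splicing endonuclease, and LLGL2, a polarity protein. Of these 13 intervals, 8 were at head-to-head genes and 5 were not placed.

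Some loci carried several intervals. Of the 4926 pairs, 436 had 1 interval, 62 had 2 and 3 had 3. The last were PCNX2/MAP3K21, TMEM127/CIAO1 and GNL1/PRR3. At TMEM127, a transmembrane tumour suppressor, and CIAO1, a factor of cytosolic iron-sulphur assembly, the scores were 32, 27 and 35, and the midpoints lay 711.5, 84 and 271.5 bp from the nearest start, the first 2 on the TMEM127 side and the last on the CIAO1 side of the gap. At GNL1 and PRR3, a wide interval of 775 bp with a score of 53 covered both starts and was flanked by intervals with scores of 21 and 30. When those of the 547 intervals that were closer than 1 kb to each other were joined, they formed 477 loci. Together they covered 182.87 kb of the 1653.02 kb in all 4994 intervals.

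The 12 intervals at 3 genes had scores from 13 to 43. The highest lay at TMEM219, LOC124903762 and TAOK2, a stress-responsive kinase, with a score of 43. At SF3B6, a splicing factor subunit, FAM228B and TP53I3, a p53-induced quinone oxidoreductase, the score was 39. CHTF8, DERPC and UTP4 had 2 intervals with scores of 28 and 38. SPATA25, NEURL2 and CTSA, the protective protein of lysosomal galactosidase, shared an interval with a score of 36 that was listed 4 times. At POC1B and its read-through genes POC1B-DUSP6 and POC1B-GALNT4 the score was 29, and at ATRIP, TREX1 and SHISA5 it was 25. At SLC35G6, ZBTB4 and POLR2A, the largest subunit of RNA polymerase II, it was 21. The other 4 were at ELOVL3/PITX3/GBF1 with a score of 22, at CAB39L/SETDB2/SETDB2-PHF11 with 22, at TNFSF12-TNFSF13/TNFSF13/SENP3 with 22 and at ENDOG/KYAT1-SPOUT1/SPOUT1 with 13.

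The few intervals where tails met had low to middling scores. They lay at MYO7B/LIMS2 with a score of 22, at the tails of ATRIP, TREX1 and SHISA5 with 25, at DBH/SARDH with 31 and at LOC124902325/GTF3C5 with 39. The interval at the same-strand tails of LOC122513141 and NDOR1 had a score of 27. Except for MYO7B/LIMS2 and LOC122513141/NDOR1, at 282.5 and 292.5 bp, their midpoints were 485.5 to 607.5 bp from the nearest tail.

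The limit of 1 kb divided a continuous range of distances. The second-nearest gene end was 900 to 1000 bp away for 34 of the 547 intervals, and over 1000 to 1100 bp away for 26 intervals left out. Just inside were LOC124900417/ARID1A at 987.5 bp, PRPF6/SAMD10 at 993.5 bp and ABHD15/TP53I13 at 994 bp. Just outside were ROM1/EML3 at 1002 bp, ORC6/VPS35 at 1003.5 bp and NRM/PPP1R18 at 1014.5 bp. The pair VPS35/ORC6 was still represented by another interval nearer to both genes.

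Next, the genes at these intervals were grouped by function. For each of 12 gene lists, written from general knowledge, the genes with another coding gene end within 2 kb were taken as those that could have met the rule. Their share was read against the 13.6% of all such genes. The aminoacyl-tRNA synthetases, which charge tRNAs for translation, had the highest share, with 7 of 20 genes (35.0%, 18.1% to 56.7%). VARS2, the mitochondrial valyl-tRNA synthetase, shared an interval of score 59 with GTF2H4. WARS1 shared an interval of score 43 with WDR25, and KARS1 one of score 34 with TERF2IP. HARS1 and HARS2, the cytosolic and mitochondrial histidyl-tRNA synthetases, both belong to the list and share their promoter, where the interval had a score of 25. CARS2 and YARS1 completed the 7.

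The cell cycle list had 9 of 44 genes (20.5%, 11.2% to 34.5%), and the range included the background. ORC6, a subunit of the origin recognition complex, shared an interval of score 63 with VPS35, a retromer subunit, at chr16:46689333-46689556. MCM2, part of the replicative helicase, shared an interval of score 60 with TPRA1, and the mitotic kinase AURKA one of score 37 with CSTF1, a factor of mRNA 3′ end processing. DNA repair had 12 of 76 genes (15.8%, 9.27% to 25.6%). RAD50, part of the MRN complex for double-strand breaks, shared an interval of score 60 with IL5. ATRIP, the partner of ATR kinase, shared an interval of score 50 with CCDC51, and the endonuclease APEX1 one of score 46 with OSGEP.

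Mitochondrial genes were near the background. Respiratory chain and ATP synthase genes, with assembly factors named NDUFAF, had 10 of 54 (18.5%, 10.4% to 30.8%). Behind NDUFS3 came SDHA, the catalytic subunit of complex II, at an interval of score 53 with CCDC127. NDUFS6, another complex I subunit, and MRPL36, a mitochondrial ribosomal protein, shared an interval of score 49. Mitochondrial ribosomal proteins had 6 of 52 genes (11.5%, 5.40% to 22.97%), led by MRPL27, which shared an interval of score 66 with EME1, a subunit of a structure-specific endonuclease. MRPS34 shared an interval of score 39 with EME2, the paralogue of EME1.

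Protein folding and turnover gave similar shares. Chaperones had 7 of 39 genes (17.9%, 8.98% to 32.7%). CCT5, a subunit of the TRiC chaperonin, shared an interval of score 55 with ATPSCKMT. HSP90AA1, the inducible cytosolic HSP90, shared one of score 45 with WDR20, and CCT6A, another TRiC subunit, one of score 41 with PSPH. The proteasome had 3 of 23 genes (13.04%, 4.54% to 32.1%). They were PSMB9, an immunoproteasome subunit next to the peptide transporter TAP1 (score 39), PSMA1 next to PDE3B (35) and PSMD13 next to the deacetylase SIRT3 (32).

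Other families were low in the list. Of 138 genes named ZNF, 11 were at an interval (7.97%, 4.51% to 13.7%), led by ZNF653 beside ECSIT with a score of 67, ZNF219 beside TMEM253 with 61 and ZNF174 beside ZSCAN32 with 37. The pair ZNF646/ZNF668 had an interval of score 29. Of 53 replication-dependent histone genes, which are crowded in clusters, only H4C16 was at an interval (1.89%, 0.334% to 9.94%), and olfactory receptors had 0 of 36, with an upper bound of 9.64%. Proteins secreted by hepatocytes had 2 of 22 genes (9.09%, 2.53% to 27.8%). They were APOM, an apolipoprotein, which shared an interval of score 37 with BAG6, and C8G, a complement subunit, which shared one of score 34 with FBXW5. The histone and olfactory ranges lay below the background of 13.6%, the range of the synthetases above it, and the other 9 ranges included it. Over all genes of a list, any interval at an end was found for 47.4% of synthetases, 2.86% of histone genes and 0% of olfactory receptors. Among all coding genes it was 16.1%. The contrasts of these 3 lists were thus not particular to shared gene ends. On this measure the other 9 lists ranged from 4.29% for hepatocyte proteins to 32.7% for DNA repair. The lists were written with earlier results of these data known, and no test was made of them.

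**Figure D5:**
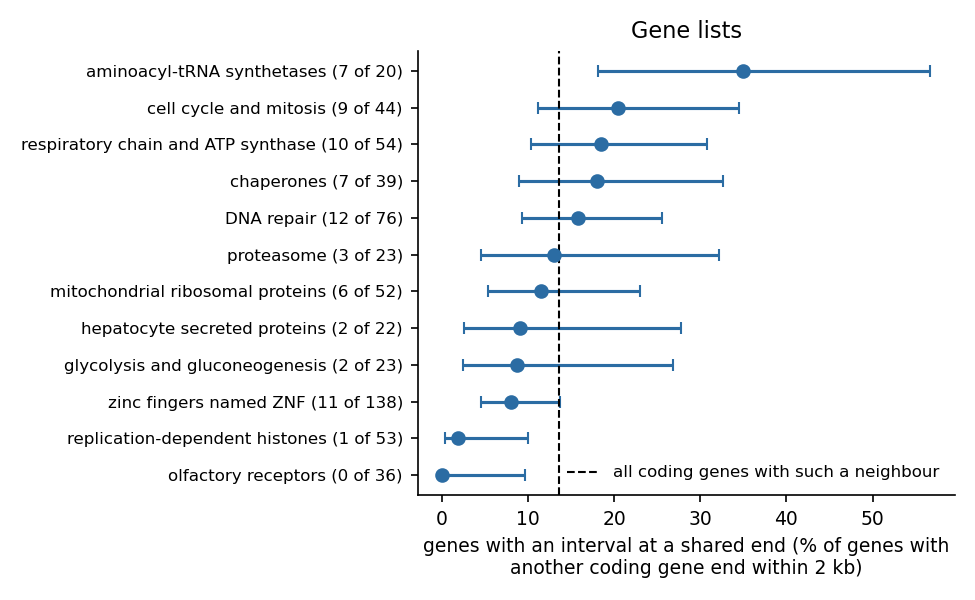
Share of genes at an interval, in percent of the genes of each list that have another coding gene end within 2 kb, with 95% Wilson intervals. The dashed line is the share of 13.6% over all such genes, with the synthetases at 35.0% above it and the histones at 1.89% below it.

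The study pursued glycolysis, so this pathway was followed in full. Of 65 glycolysis and gluconeogenesis genes on chromosomes 1 to 22, 23 have another coding gene end within 2 kb and 2 of these were at an interval (8.70%, 2.42% to 26.8%). PFKM, the muscle isoform of phosphofructokinase, overlaps SENP1, a SUMO protease, head to head. The interval at chr12:48105687-48106235 had a score of 36 and covered a single start. PKLR, the pyruvate kinase of liver and red cells, is head to head with FDPS, an enzyme of the mevalonate pathway. The interval at chr1:155308937-155309193 had a score of 34, covered neither start and lay on the FDPS side, 199 bp from its start and 411 bp from that of PKLR. PGAM1, GAPDH and ADH5, the study's candidate targets, were not among the 957 genes. The paper reported that the promoters of PGAM1 and ADH5 were enriched for RFX6 in its ChIP-seq data. In its follow-up ChIP-PCR, it reported binding at the predicted site of PGAM1 but not at that of ADH5. The 957 genes cover only intervals at shared gene ends. Whether these targets could meet that rule, or had an interval at a single gene end, is not given here. Their absence and the distances that follow therefore do not show a lack of binding at them. Of the 547 intervals, the nearest to PGAM1 lay at the ends of EXOSC1, an exosome subunit, and ZDHHC16, a palmitoyltransferase, 12229 bp away. Its score was 50, and it was among the intervals not placed, as the strand of EXOSC1 was not known. For GAPDH the nearest was at CDCA3/USP5, 313425 bp away. For ADH5 it was at RPL9/LIAS, 59612029 bp away, with a score of 28.

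Pairs of genes known for a bidirectional promoter were looked up by name. Of 24 such pairs, 21 have ends within 2 kb in the table and 7 of these had an interval (33.3%, 17.2% to 54.6%). This range included the 22.9% of all head-to-head pairs, while the share over all 4926 pairs was 10.2%. ATM, the kinase of the double-strand break response, and NPAT, the activator of histone genes, had an interval of score 35 that lay between the starts and covered neither. The interval of score 46 at APEX1 and OSGEP had its midpoint between the starts and covered 1 of them. At TAP1/PSMB9 2 intervals had scores of 39 and 33, and at SIRT3/PSMD13 they had 32 and 25. HARS1/HARS2 and PFKM/SENP1, described above, were also among the 7. Among the 14 pairs with no interval were HSPD1/HSPE1, PRKDC/MCM4, SURF1/SURF2, COL4A1/COL4A2, COL4A3/COL4A4, CHEK2/HSCB, FEN1/TMEM258, BRCA2/ZAR1L, MRPS12/SARS2, RANBP1/TRMT2A, TSC2/NTHL1 and RECQL/GOLT1B. Close head-to-head starts occurred both without an interval, as in HSPD1/HSPE1 at 105 bp and TSC2/NTHL1 at 151 bp, and with it, as in HARS1/HARS2 at 85 bp. PPAT/PAICS, UNG/ALKBH2 and IREB2/HYKK have ends farther apart than 2 kb, at 17145, 4125 and 6124 bp.

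Motifs were then searched in the promoters of these genes. A promoter was taken as the 300 bases from 250 before to 50 after a gene start in the RefSeq promoter table, and 641 of the 695 genes with a start at an interval could be matched. Of 12 motifs, those shorter than 10 letters are spelled out and the others are given by name. The shares are those of promoters with at least 1 match on either strand. The RFX element GTTGCC was in 92 of the 641 promoters (14.4%, 11.9% to 17.3%). It was in 11.5% of 1639 promoters with an interval at a single start (10.02% to 13.1%), in 15.5% of 1610 head-to-head promoters without an interval (13.8% to 17.4%) and in 12.5% of all 13868 promoters (11.9% to 13.03%). Single start here means that no other coding gene end lay within 1 kb of the interval midpoint. The X-box was searched as GTTNCC and GGNAAC with 2 bases between them, where N is any base, and it also holds GTTGCC when the free base of an arm completes it. It was in 4 of the 641 promoters (0.624%, 0.243% to 1.59%), in 0.621% of head-to-head promoters without an interval and in 0.454% of all promoters. For both RFX motifs, the ranges of the 641 promoters and of head-to-head promoters without an interval overlapped. The 641 are not all head to head. They also include starts that adjoin a tail, starts on the same strand and starts beside an end of unknown kind. Here and for the motifs below, these groups thus differ in arrangement as well.

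Other motifs gave larger contrasts with promoters in general. The NRF1 motif was in 17.3% of the 641 promoters (14.6% to 20.4%), in 12.5% of those with an interval at a single start (10.99% to 14.2%), in 13.7% of the head-to-head promoters without an interval (12.1% to 15.5%) and in 8.88% of all. The ETS letters CCGGAAGT were in 15.0% (12.4% to 17.9%), in 7.87% of those with an interval at a single start (6.66% to 9.28%), in 14.8% of the head-to-head promoters without an interval and in 6.58% of all. GGGCGG was in 76.3% (72.8% to 79.4%), in 79.9% of those with an interval at a single start (77.9% to 81.8%), in 68.9% of the head-to-head promoters without an interval (66.6% to 71.2%) and in 59.4% of all. In these groups, in the same order, the YY1 motif was in 6.08%, 4.21%, 3.54% and 2.41%, and CACGTG in 13.6%, 10.7%, 10.2% and 8.84%. CCAAT was in 38.2%, 36.5%, 39.4% and 36.4%, and the CRE letters TGACGTCA in 3.59%, 3.11%, 2.98% and 2.73%. The ZBTB33 motif was in 1.09%, 0.915%, 1.49% and 0.721%, and the ZNF143 motif in 0.936%, 0.610%, 0.932% and 0.411%. TATAAA was in 2.65%, 4.39%, 4.66% and 9.84%. The median GC content was 67.3% for the 641, 69% for those with an interval at a single start, 63.7% for the head-to-head promoters without an interval and 63% for all, and the part of GC content in these shares was not tested.

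The bases under the intervals were also searched where a promoter window covered them. These were 70.674 kb of the intervals at shared ends and 252.067 kb of those at a single gene end. GTTGCC occurred 0.467 times per kb (0.321 to 0.656, exact Poisson) at shared ends, 0.452 times (0.373 to 0.543) at single ends and 0.431 times (0.417 to 0.445) in promoter bases outside all intervals. No X-box was found at shared ends, which allows up to 0.0522 per kb, against 0.0162 per kb outside the intervals. The ETS letters occurred 0.524 times per kb (0.369 to 0.722) at shared ends and 0.294 times (0.231 to 0.369) at single ends, and these ranges lay next to each other without overlap. The NRF1 motif occurred 0.736 times (0.550 to 0.965) and 0.532 times (0.445 to 0.630). The GC content of these bases was 69.2% and 71.9%, against 56.3% outside the intervals.

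The 4 promoters with an X-box belong to 3 pairs, and their matches are shown because the X-box is the site that RFX proteins are known to bind. Capitals mark the match, with 8 bases on either side, from the RefSeq promoter table of GRCh38.p14.
WFDC3/DNTTIP1 (match at chr20:45791876-45791889, plus strand, 78 bp before the DNTTIP1 start): gcggttcgGTTCCCATGGTAACcccgcagc
CINP/TECPR2 (match at chr14:102363015-102363028, minus strand, 138 bp before the CINP start): gggagcctGTTCCCTGGGCAACggggccgg
ACD/PARD6A (match at chr16:67660852-67660865, plus strand, 108 bp before the PARD6A start): acggctccGTTTCCTAGGAAACgtggactc
None of the 3 matches lay inside the interval of its pair. At WFDC3/DNTTIP1, where the match fell in both promoters, the interval at chr20:45791656-45791872 had a score of 56 and ended a few bases before the match, with its midpoint 118.5 bp away. At CINP, a checkpoint protein, and TECPR2, an autophagy protein, the midpoint was 187 bp away and the score was 25. At ACD, the shelterin protein TPP1, and PARD6A, a polarity protein, it was 276 bp away and the score was 13, the lowest score given to any interval.

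The intervals were spread over all 22 chromosomes, with shares of the intervals of a chromosome from 3.51% of 57 on chromosome 4 to 4 of 20 on chromosome 13. Over all head-to-head pairs 22.9% had an interval. Of the pairs on chromosome 21, which has only 8, 4 had an interval (50%, 21.5% to 78.5%). It was 22 of 52 on chromosome 9 (42.3%, 29.9% to 55.8%), 28 of 77 on chromosome 11 (36.4%, 26.5% to 47.5%) and 23 of 73 on chromosome 3 (31.5%, 22.004% to 42.9%). On chromosome 4 it was 2 of 41 (4.88%, 1.35% to 16.1%) and on chromosome 19 it was 11 of 88 (12.5%, 7.13% to 21.0%).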

How the data were processed

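The peak list of the HA-RFX6 ChIP library of MHCC-97H cells was used, 1 file of 2 libraries, grouped by their titles. The authors called peaks with MACS2 2.1.0.2 (per the submitters' processing notes) and deposited chromosome, start, end, name and a whole-number score per line, whose meaning is not stated. The aligner and the control used are not given in the sources used here. The notes name GRCh37. The coordinates were nevertheless read as GRCh38, because 2008 of 4994 intervals (40.2%) touched a GRCh38.p14 promoter window, against 1.58% and 1.30% once shifted 20 kb to the left or right, and no interval lay beyond the last annotated gene of a chromosome.

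The 6214 lines held 5022 distinct intervals. Identical intervals were counted once with their highest score, and those on chromosomes 1 to 22 were used, 1-based. Gene ends came from the RefSeq gene table, strands from the RefSeq promoter table, whose windows were kept within 1 kb of the gene start in the table, 13868 in all. Outermost annotated ends were used. A pair had ends at most 2 kb apart. Shares carry 95% Wilson intervals, medians 95% order-statistic intervals and densities exact Poisson intervals. With 1 library, no p-value was computed.

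The intervals, gene lists, pairs and motifs were chosen with earlier results of these data known. Named were the 10 highest scores with all ties, the 3 highest of each list, intervals at 3 genes, pairs with the most intervals, glycolysis genes at an interval and known bidirectional pairs with or without an interval (some of these pairs are counted but not reported here by name), and intervals next to the 1 kb limit. Sequences shown are all X-box matches and the 6 highest-scoring stretches between starts that met the 3 conditions given with them, and chromosome 8 was left out of the sequences. The tail pairs, the chromosomes, the ties and the other genes of the synthetase list were named after their values were seen. Placement and motif search were tested on simulated data. Python 3.11.15, numpy 2.4.6, pandas 2.3.3, scipy 1.17.1 and matplotlib 3.10.9 were used.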

Additional observations from a re-analysis of the deposited data

Results flagged for a closer look

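Chromosome X was left out of all comparisons, but 6 of its 25 intervals met the same rule (24.0%, 95% Wilson interval 11.5% to 43.4%). The share on chromosomes 1 to 22 was 10.95% (10.1% to 11.8%), and these ranges overlapped. The 6 intervals are listed because they were not used in the report and were more than 3, a limit set without regard to the share on chromosomes 1 to 22. The 6 lay at GLA/HNRNPH2 with a score of 39, at TMEM255A/ZBTB33 and NAA10/RENBP with 27 each, at AMER1/LOC112268307 with 24, and at LOC124900597/SLC25A6 and BGN/HAUS7 with 13 each. GLA is the lysosomal galactosidase and NAA10 the catalytic subunit of an N-terminal acetyltransferase.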

How the results depend on the processing

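Of 29 values under alternative settings, 22 moved by less than the limits set for them. They included the share of head-to-head intervals among placed ones, which was 77.0% at a score of at least 30 and 77.5% without read-through genes, and the promoters with GTTGCC, at 13.6% and 14.6%. The others moved. A limit on the score removes intervals and raises their median score by construction, and for the rest the cause was not tested. At a score of at least 30 there were 314 intervals, 6.09% of pairs had an interval, and the median score and width were 39.5 and 309.5 bp. With intervals closer than 1 kb joined, the median width was 327 bp. With midpoints within 500 bp, there were 344 intervals and 8.90% of pairs had an interval. The number of intervals was 754 within 2 kb, 590 with any overlap, 467 when all close intervals were joined before the rule was applied and 534 without read-through genes, and 812 of all lines met the rule. No paired analysis was possible because a single ChIP library was used, and no replicate could be left out. The depth is unknown, so intervals that were missed for lack of reads cannot be told from places without binding.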
